A study of Rattus norvegicus with 4 samples.

Results

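Skeletal muscle of rats modelling intermittent claudication, leg pain from poor blood flow, was compared between both treated arrays, ischemia + ES (electrical stimulation that makes the muscle contract through its nerve) and ischemia + exercise, and both untreated arrays, sham and ischemia. All 4 arrays of the series entered, 1 per group, so each side held 2 arrays that are not replicates of one another. The rats were of the F344/DuCrlCrlj strain in every group. The sham group had no ischemia by its label, and the other 3 groups all carried the ischemia. The study's own contrast was ES and exercise against ischemia, and sham is used here as a second untreated array. The labels do not say which muscle was taken, how old the animals were, how many stood behind an array, at what hour they were sampled or how long they were stimulated or exercised.

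Genes were chosen by a rule on measured signals. The floor was the median over the whole data set, 30.1 signal units, and replaced each lower signal. Then the 4 ratios of a treated over an untreated array were formed for each gene. A gene was counted where all 4 ratios reached 1.5-fold, or 2-fold, in 1 direction. The smallest of the 4 ratios, called the gap here, therefore says how far apart the nearest arrays of the sides lay. With 1 array per group no p-value can be given, a count describes these 4 arrays only, and the values that chose a gene do not test it.

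Working muscle changes its transcripts through several routes. Nerve activity and calcium act on acetylcholine receptor genes and on the calcium pump of the sarcoplasmic reticulum, growth hormone and cytokines act through STAT transcription factors, and feeding, activity and light set the phase of the circadian clock. Cish belongs to the SOCS family of feedback inhibitors and is a classical STAT5 target. Gadd45g is a stress-inducible growth arrest gene, and Dbp is a transcription factor whose level is driven by the clock.

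Of the fixed muscle fibre markers, 10 of 10 were above the floor, and their summed signals lay between 80116 and 89825 on the 4 arrays. Summed signals of markers, here and below, were taken before the floor replaced lower signals. Median signals ran from 29.0 to 31.8. For actin, 3' probe sets divided by 5' ones (a measure that grows as RNA degrades) gave 4.38 on sham, 3.81 on ischemia, 5.94 on ES and 4.34 on exercise, so this measure did not separate the sides. Its part in the results was not tested.

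Of 10092 genes compared, 27 were at least 1.5-fold higher in all 4 ratios (0.268%) and 10 were at least 1.5-fold lower (0.0991%). At 2-fold, 4 genes were higher (0.0396%), namely Ints1, Dbp, Msmp and Osbp2, and 2 were lower (0.0198%), namely Cish and Gadd45g. Without any fold asked, both treated arrays lay above both untreated arrays for 1853 genes (18.4%) and below them for 1357 (13.4%). The gene sets of the single ratios were much larger. ES was at least 1.5-fold above sham for 1249 genes (12.4%) and below it for 440 (4.36%), and above ischemia for 989 (9.8%) and below it for 476 (4.72%). Exercise was above sham for 296 genes (2.93%) and below it for 172 (1.7%), and above ischemia for 406 (4.02%) and below it for 428 (4.24%). These ratios share arrays, so their counts are not independent of one another. Leaving out 1 array drops 2 of the 4 ratios and widens every count: without exercise 599 genes were higher and 216 lower at 1.5-fold, without sham 175 and 73, without ischemia 146 and 57, and without ES 105 and 60.

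A plain difference of side means counted more genes. It was at least 1.5-fold higher for 307 genes (3.04%) and lower for 91 (0.902%), and only 215 of the 307 had both treated arrays above both untreated ones. ES was at least 1.5-fold above exercise for 146 of the 307, and exercise above ES for 24. Myh8, the perinatal myosin heavy chain, had signals of 36.9 on sham, 86.4 on ischemia, 2393 on ES and 45.0 on exercise. Its difference of means was 2.54 on the log2 scale, above that of any counted gene, yet ES alone carried it. Sln, the calcium pump inhibitor sarcolipin, read 1420 on sham, 68.2 on ischemia, 665 on ES and 802 on exercise. There the ischemia array alone was low, and sham stood above both treated arrays. Both genes were picked after their values were seen, to show what the gap leaves out.

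**Figure D1:**
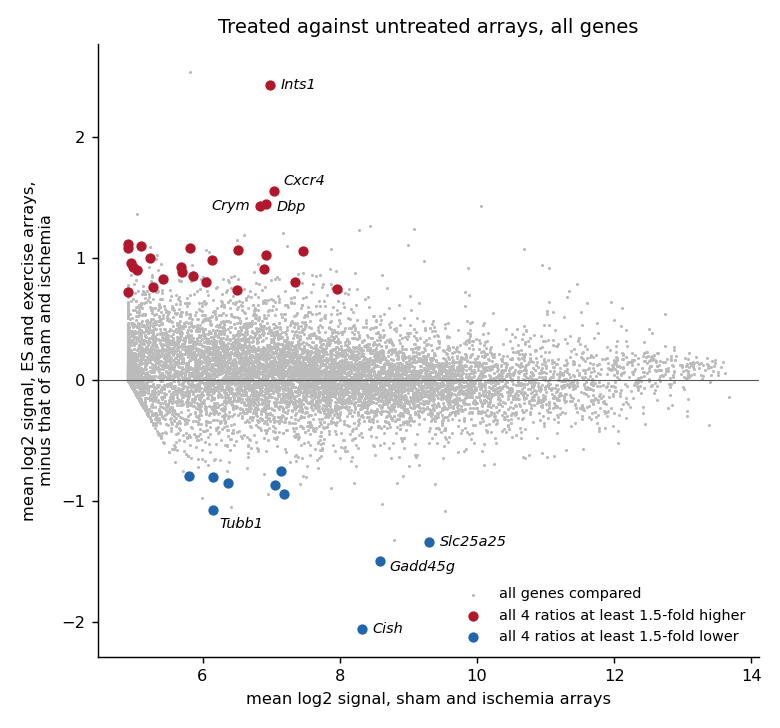
Difference of the mean log2 signal of the ES and exercise arrays from that of the sham and ischemia arrays (vertical axis) against the latter (horizontal axis), 1 point per gene for 10092 genes; coloured points are the 27 genes higher and 10 genes lower by at least 1.5-fold in all 4 ratios. Cish, Gadd45g and Slc25a25 lie lowest of the coloured points, and the grey point above all coloured ones is Myh8, with a difference of 2.54 that ES alone carried.

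The lower genes were led by Cish. Its signal was 292 on sham, 355 on ischemia, 60.5 on ES and 99.2 on exercise. Both untreated arrays were high and both treated arrays low, with no overlap and a gap of 2.94-fold between sham and exercise. ES was 5.87-fold and exercise 3.58-fold below ischemia. A second Cish probe set lay under the floor on every array, and with the mean of all probe sets the gap was 0.78 on the log2 scale in place of 1.56. That narrowing follows by arithmetic from averaging with floored values. Of the other genes of cytokine receptor, growth hormone and STAT signalling, 14 of 20 were measured with Cish, and Cish alone was counted. Both treated arrays lay below both untreated ones for 4 of the 14 (Cish, Socs2, Stat5a and Jak2) and above them for 1, Igf1r, against 13.4% and 18.4% of all genes. Socs2, the next SOCS family inhibitor, read 34.9 on sham and 38.3 on ischemia and was at the floor on both treated arrays, a gap of at least 1.16-fold. Stat5a, which encodes a factor that binds the Cish promoter, read 201, 198, 171 and 192 on sham, ischemia, ES and exercise, so the sides did not overlap but the gap was 1.03-fold. The growth hormone receptor gene Ghr (475, 506, 487 and 476 in that order) and Igf1, the growth factor that growth hormone induces (567, 623, 1096 and 423), overlapped between the sides. The median difference of side means over the list was -0.01, against 0.04 over all genes.

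Gadd45g read 395 on sham, 371 on ischemia, 137 on ES and 134 on exercise. Its sides were tight: ES and exercise differed by 1.02-fold and sham and ischemia by 1.06-fold, while the gap was 2.71-fold. Gadd45a, its family member and a gene raised by denervation, did not share this pattern, with 178, 242, 433 and 173 in the same order. Slc25a25, the calcium-dependent carrier that exchanges ATP-magnesium for phosphate across the inner mitochondrial membrane, read 751 on sham, 533 on ischemia, 206 on ES and 302 on exercise. It was the brightest counted gene on sham, its gap was 1.77-fold, and ES was 3.64-fold below sham.

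The start regions of these 3 genes are shown, picked after their motif matches were seen. Tubb1 had a wider gap than Slc25a25, at 1.84-fold, and 3 E-boxes in its window, which is not shown. The windows are RefSeq's on GRCr8, from 250 bases before the start site to 50 after it, 5' to 3' on the gene's strand. Capitals mark the STAT-type motif TTCNNNGAA in Cish (chr8:116850719-116851018, plus strand), E-boxes (CANNTG) and the TATA motif TATAAA in Gadd45g (chr17:13530302-13530601, minus strand), and the CRE motif TGACGTCA with 1 E-box in Slc25a25 (chr3:36116532-36116831, minus strand).
Cish: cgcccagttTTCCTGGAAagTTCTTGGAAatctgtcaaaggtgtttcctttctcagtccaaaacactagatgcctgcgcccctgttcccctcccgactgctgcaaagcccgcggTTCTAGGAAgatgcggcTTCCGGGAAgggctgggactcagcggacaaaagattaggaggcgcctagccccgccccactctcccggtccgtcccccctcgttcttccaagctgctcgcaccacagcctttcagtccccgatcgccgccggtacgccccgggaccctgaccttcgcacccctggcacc
Gadd45g: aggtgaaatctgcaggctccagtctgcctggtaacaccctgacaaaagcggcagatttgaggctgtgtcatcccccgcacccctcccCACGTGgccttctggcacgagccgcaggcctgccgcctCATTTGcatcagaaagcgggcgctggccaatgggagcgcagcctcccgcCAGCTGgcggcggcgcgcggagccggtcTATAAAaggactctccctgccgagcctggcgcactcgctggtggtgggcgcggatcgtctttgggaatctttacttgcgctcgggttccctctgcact
Slc25a25: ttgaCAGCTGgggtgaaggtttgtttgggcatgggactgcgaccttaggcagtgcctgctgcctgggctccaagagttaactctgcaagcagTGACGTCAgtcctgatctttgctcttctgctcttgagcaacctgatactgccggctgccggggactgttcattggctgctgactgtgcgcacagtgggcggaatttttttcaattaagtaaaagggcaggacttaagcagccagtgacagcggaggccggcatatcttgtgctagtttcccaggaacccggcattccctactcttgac
Cish held 4 matches to TTCNNNGAA, whose first bases lay at positions -241, -230, -136 and -119 from the start site. At least 1 such match stood in 8.87% of all 33469 windows and 6.79% of those of genes compared, and 4 or more in 2 windows, of which 1, that of Cish, belonged to the 8439 genes compared that had a window. The CRE of Slc25a25 began at position -158, and 1.83% of all windows and 3.13% of those of genes compared held that motif. Gadd45g held E-boxes at -163, -125 and -76 and its TATA motif at -48. At least 1 E-box stood in 72.1% of all windows and 62.3% of those of genes compared, and 3 or more in 16.6% and 9.73%. The TATA motif stood in 14.2% and 6.92%. Both strands were searched. A match describes the letters and shows no binding.

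The other 7 lower genes had gaps of at most 1.84-fold and no signal over 157. Tubb1, the beta tubulin of platelets and megakaryocytes, read 65.0 and 77.8 on sham and ischemia against 32.4 and 35.4 on ES and exercise, a gap of 1.84-fold just outside the 2-fold set. Klhl20, a substrate adaptor of the CUL3 ubiquitin ligase, read 136 and 157 against 79.8 and 72.5. Utp11, a factor of small ribosomal subunit assembly, read 138 and 128 against 75.0 and 70.9. Both gaps were 1.70-fold, with sides that did not overlap. Samd11 had a gap of 1.62-fold and the proton-activated chloride channel gene Pacc1 one of 1.55-fold. Nearest to the threshold were Ccna1, a germ-cell cyclin, at 1.54-fold, and Dnase1l3, a secreted nuclease of macrophages and dendritic cells, at 1.52-fold. A second Ccna1 probe set showed a gap of only 0.04 on the log2 scale. Just outside lay Tsn (1.48-fold, with ES at the floor), Lrfn3 and Slc4a4 (both 1.47-fold).

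**Figure D2:**
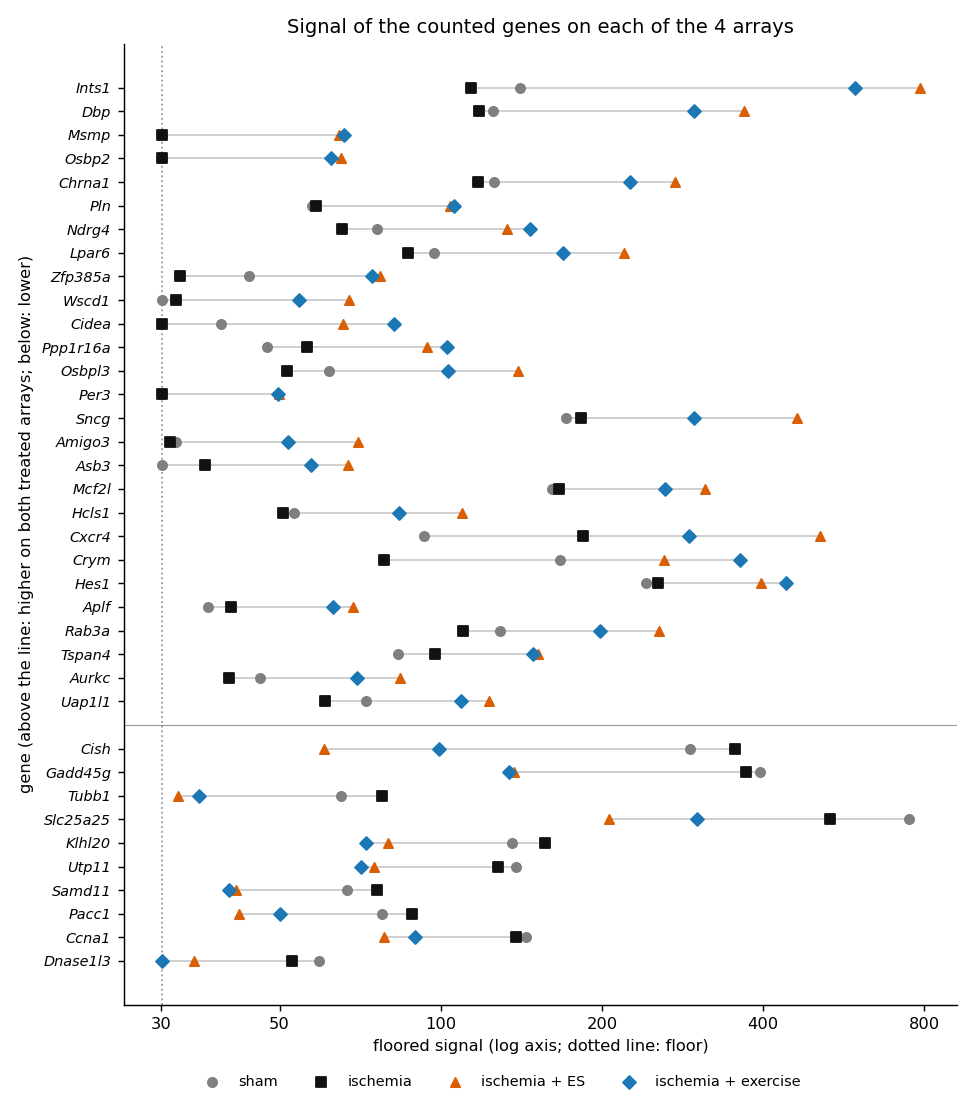
Floored signal (horizontal log axis, dotted line at the floor of 30.1) of each of the 37 counted genes on the 4 arrays, 1 marker per array, with the 27 higher genes above the line and the 10 lower genes below it, ordered by gap. Gadd45g shows narrow sides beside a wide gap, and Msmp, Osbp2 and Per3 sit at the floor on both untreated arrays.

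On the higher side, Ints1 had the largest gap. The gene encodes the largest subunit of Integrator, the complex that cuts small nuclear RNAs, and read 141 on sham, 114 on ischemia, 784 on ES and 593 on exercise, a gap of 4.22-fold. This rested on 1 probe set. A second probe set above the floor on all 4 arrays read 56.7, 48.7, 60.3 and 72.8, with a gap of 0.09 on the log2 scale. With the mean of all probe sets the gap fell below 1.5-fold (0.51 on the log2 scale). Part of that fall is arithmetic, because further Ints1 probe sets lay under the floor on every array. Msmp, which encodes a secreted microseminoprotein, was at the floor on both untreated arrays and read 64.6 on ES and 66.1 on exercise, a gap of at least 2.15-fold. Osbp2, an oxysterol-binding lipid transfer protein gene, did the same with 65.1 and 62.5, a gap of at least 2.07-fold. Its second probe set was under the floor on every array, and with the mean of probe sets it was not counted. Averaging with such a probe set narrows a gap by arithmetic, so this loss does not test the gene.

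Dbp had the second largest gap on the higher side, measured above the floor on all 4 arrays by its only probe set. It read 125 on sham, 118 on ischemia, 368 on ES and 297 on exercise. Both treated arrays lay well above both untreated ones, with a gap of 2.37-fold. Per3, a period gene of the clock, was at the floor on both untreated arrays and read 49.9 and 49.7 on ES and exercise, a gap of at least 1.65-fold.

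The clock list was then read as a whole, with 16 of 18 genes measured. Both treated arrays lay above both untreated ones for 5 of the 16 and below them for 3, against 18.4% and 13.4% of all genes. In the clock, BMAL1 with CLOCK or NPAS2 drives the Per, Nr1d and Dbp genes, and the Nr1d products in turn repress Bmal1, Npas2 and Nfil3, so both groups cycle in opposite phase. The 5 higher genes were Dbp, Per3, Per2, Nr1d1 and Nr1d2. Per2 read 133, 109, 192 and 187 on sham, ischemia, ES and exercise, a gap of 1.41-fold. Nr1d1, which encodes the repressor REV-ERB alpha, read 140, 224, 308 and 346, a gap of 1.37-fold, and its relative Nr1d2 read 861, 999, 1241 and 1353, a gap of 1.24-fold. These 5 stood higher on both treated arrays, while other driven or repressive members of the list did not. The 3 lower genes were Bmal1 (104, 101, 73.9 and 87.2), Npas2 (156, 180, 127 and 91.6) and Nfil3, a repressor that opposes DBP at its sites (500, 420, 190 and 337). Their gaps were 1.16-fold, 1.23-fold and 1.25-fold. The other 8 overlapped between the sides: Per1, which ran from 66.3 on exercise to 129 on ischemia, Clock, Cry1, Cry2, Tef, Hlf, Bhlhe40 and Bhlhe41. The median over the list was -0.04, with members on both sides of it. Of these clock genes Dbp and Per3 alone passed 1.5-fold, and Per3 was not counted with the mean of its probe sets (0.36 on the log2 scale). The other Per3 probe set was under the floor on every array, and averaging with it narrows the gap by arithmetic. Whether the hour of sampling differed between the groups cannot be read from the sources used here, and its part was not tested.

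**Figure D3:**
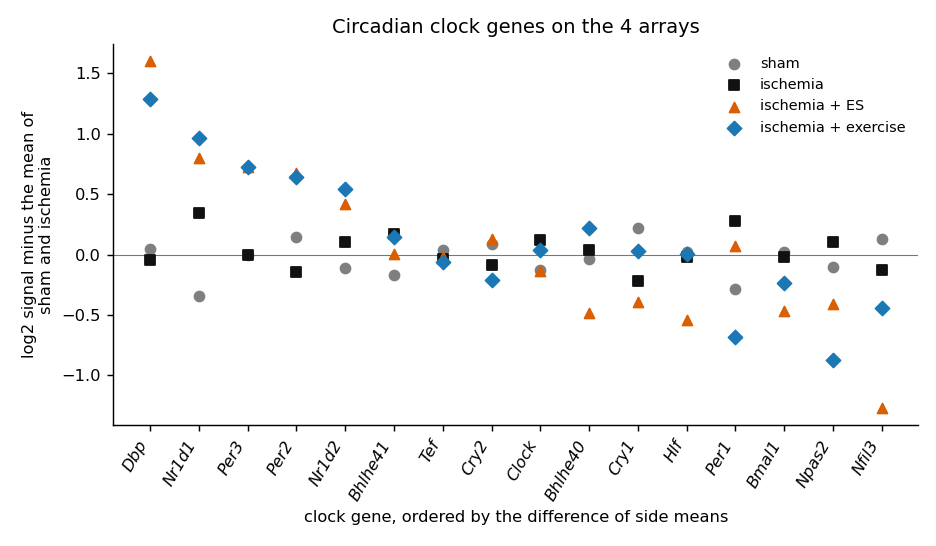
Log2 signal of the 16 measured clock genes on each array, minus the mean of the sham and ischemia arrays (vertical axis), 1 marker per array, genes ordered by the difference of side means. Dbp, Nr1d1, Per3, Per2 and Nr1d2 have both treated arrays above both untreated ones, and Bmal1, Npas2 and Nfil3 have both below.

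Chrna1, the alpha subunit of the muscle acetylcholine receptor, read 126 on sham, 118 on ischemia, 274 on ES and 225 on exercise. The sides did not overlap, and the gap was 1.79-fold. No other of the 11 measured genes of the neuromuscular junction list had non-overlapping sides in either direction. Among all genes, both treated arrays lay above both untreated ones for 18.4% and below them for 13.4%. Chrnd, the delta subunit, read 132, 55.7, 265 and 89.6, so exercise lay below sham. Chrnb1 read 140, 158, 155 and 128, and the epsilon subunit gene Chrne was above the floor on ES alone (55.4). Subunits of the receptor therefore differed in pattern across the arrays. The list's median difference of side means was 0.40, but its median was 0.67 for ES over ischemia and -0.05 for exercise over ischemia. Chrng, the fetal subunit gene, and Musk, the receptor kinase that builds the junction, did not exceed the floor on any array.

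The start regions of Dbp and Chrna1 are given for comparison with the lower genes. Those of Ints1, Msmp and Osbp2, whose gaps were wider than that of Chrna1, are not shown. The Ints1 window held no match to any motif searched. Capitals mark the 1 match to TTCNNNGAA in Dbp (chr1:105312006-105312305, plus strand, GRCr8) and the E-boxes of Chrna1 (chr3:78877304-78877603, minus strand, GRCr8).
Dbp: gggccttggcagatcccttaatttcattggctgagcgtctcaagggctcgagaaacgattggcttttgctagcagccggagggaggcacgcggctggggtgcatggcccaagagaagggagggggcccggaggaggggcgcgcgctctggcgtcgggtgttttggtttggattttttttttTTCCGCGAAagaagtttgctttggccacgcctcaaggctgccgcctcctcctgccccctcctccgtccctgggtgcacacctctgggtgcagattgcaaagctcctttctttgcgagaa
Chrna1: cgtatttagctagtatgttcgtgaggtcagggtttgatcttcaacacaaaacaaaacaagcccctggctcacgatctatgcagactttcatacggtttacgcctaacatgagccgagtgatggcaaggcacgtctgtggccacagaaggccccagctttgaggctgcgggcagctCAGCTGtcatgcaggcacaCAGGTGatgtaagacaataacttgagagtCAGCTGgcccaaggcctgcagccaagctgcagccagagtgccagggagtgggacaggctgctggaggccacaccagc
The Dbp match began at position -69, and this window held no E-box. Chrna1 held 3 E-boxes, at -75, -56 and -27, and 16.6% of all windows and 9.73% of those of genes compared held 3 or more. Over the 33 counted genes with a window, 60.6% held an E-box, against 62.3% of the windows of genes compared, and 9.09% held TTCNNNGAA, against 6.79%. The AP-1 motif TGANTCA stood in 12.1% against 5.02%, and TATAAA in 15.2% against 6.92%, or 4 and 5 of the 33 windows. The CRE stood in 3.03% against 3.13%, its shorter form TGACG in 27.3% against 32.3%, and the ERR site AAGGTCA in 3.03% against 2.74%. None of these differences was tested. The median GC content was 57.7% for the counted genes and 61.0% for genes compared, with 11 and 21 CpG dinucleotides. The CArG and MEF2 motifs had no match in these 33 windows, and 1.36% and 1.66% of the windows of genes compared had one.

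Calcium handling had 1 counted gene of 21 measured, beside 37 of the 10092 genes compared. Pln, which encodes phospholamban, an inhibitor of the slow-type calcium pump, read 57.5 on sham, 58.4 on ischemia, 104 on ES and 106 on exercise. ES and exercise differed by 1.02-fold and the untreated arrays by 1.02-fold, with a gap of 1.78-fold. A second Pln probe set also had both treated arrays above both untreated ones, with a smaller gap of 0.12 on the log2 scale (70.7, 59.6, 97.5 and 77.0), and a different order within each side. The gap of Pln fell below 1.5-fold with the mean of all probe sets (0.33 on the log2 scale) and with the floor at the 70th percentile (0.03). A further Pln probe set lay under the floor on every array and narrows that mean by arithmetic. Rrad, the small GTPase that restrains the calcium channel, read 459, 49.1, 117 and 883, with ES below sham. The list's median was -0.08.

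Cxcr4, the receptor of the chemokine Cxcl12, read 93.2 on sham, 185 on ischemia, 512 on ES and 290 on exercise. All 4 arrays were apart: ischemia was 1.98-fold above sham and ES 1.76-fold above exercise, each more than the gap of 1.57-fold between ischemia and exercise. Its 2 other probe sets gave gaps of 0.76 and 0.43 on the log2 scale in the same direction. Cxcr4 was the 1 counted gene of 23 in the hypoxia and angiogenesis list, of which 8 had both treated arrays above both untreated ones and 1, Fgf2, below, against 18.4% and 13.4% of all genes. Angpt2, the vessel-destabilising angiopoietin, came next with 101, 143, 204 and 205, a gap of 1.43-fold, followed by the metalloproteinase inhibitor gene Timp3 with 934, 975, 1365 and 1274, a gap of 1.31-fold. Vegfa, the main vessel growth factor, read 721, 557, 843 and 764, a gap of 1.06-fold. Nos3, endothelial nitric oxide synthase, read 74.1, 71.0, 136 and 67.6 and overlapped, and Hif1a (590, 687, 644 and 723) did as well.

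Cxcr4 is made by endothelial cells and by leukocytes, and Hcls1, an actin regulator of blood cells, was also counted (53.1, 50.7, 110 and 83.7, a gap of 1.58-fold). Beside them, endothelial markers had 9 of 11 genes measured, with both treated arrays above both untreated ones for 5 of 9 (Pecam1, Emcn, Egfl7, Tie1 and Esam), against 18.4% of all genes, and summed signals of 2969 on sham, 3191 on ischemia, 5959 on ES and 3376 on exercise. The gaps of these 5 were between 0.04 and 0.13 on the log2 scale, with exercise close to the untreated arrays. Macrophage markers (15 of 16 measured) summed to 2464, 5558, 6604 and 3657, and lymphocyte markers (3 of 10 measured) to 130, 179, 228 and 99.998, so both overlapped between the sides. In bulk tissue, more cells of a type and more RNA per cell cannot be told apart. The part of these cells in the Cxcr4 and Hcls1 values was not tested.

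Crym had the largest fold between sham and ischemia of the counted genes. It encodes mu-crystallin, which binds thyroid hormone in the cytosol, and read 167 on sham, 78.4 on ischemia, 261 on ES and 363 on exercise. Exercise was 4.63-fold above ischemia, but sham was 2.13-fold above ischemia and the gap between sham and ES was 1.57-fold. Sncg, gamma-synuclein, a protein of neurons and fat cells, read 171, 183, 462 and 297, a gap of 1.62-fold, and Rab3a, a GTPase of vesicle release, read 129, 110, 255 and 198, a gap of 1.54-fold. A second Rab3a probe set lay near the floor, with 33.1, 39.2, 30.1 and 35.2 in that order, and overlapped between the sides. Its difference of side means was -0.15. Schwann cell markers (5 of 8 measured) summed to 1449, 1113, 1502 and 1306 in the same order and overlapped. Cidea, a lipid droplet protein best known in brown fat, read 38.9 on sham, the floor on ischemia, 65.8 on ES and 81.8 on exercise, a gap of 1.69-fold. Adipocyte markers (5 of 7 measured) summed to 434, 528, 423 and 751. ES lay lowest in that sum. The part of Schwann cells and fat cells in the Sncg, Rab3a and Cidea values was not tested.

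Hes1, the repressor induced by Notch, was the counted higher gene with the highest untreated signals, at 242 on sham, 255 on ischemia, 396 on ES and 441 on exercise, a gap of 1.55-fold. Lpar6, a receptor for lysophosphatidic acid, read 96.9, 86.8, 220 and 169, a gap of 1.74-fold. Osbpl3, a second lipid transfer gene of the Osbp2 family, read 61.8, 51.6, 139 and 103, a gap of 1.67-fold. Its other probe set, above the floor on the treated arrays alone, had a gap of at least 0.31 on the log2 scale. In these genes the sides did not overlap. Ndrg4, a gene of heart and brain, had a gap of 1.75-fold with exercise highest at 147. Mcf2l had 161, 166, 311 and 263 and a gap of 1.58-fold. Ppp1r16a, a regulatory subunit of protein phosphatase 1, read 47.5, 56.2, 94.4 and 103, a gap of 1.68-fold.

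The remaining 8 higher genes were dim, with no signal over 152. They were Zfp385a (gap 1.70-fold), Wscd1 (1.69-fold), Amigo3 (1.62-fold), Asb3 (1.58-fold), the DNA repair factor gene Aplf (1.55-fold), the tetraspanin gene Tspan4 (1.52-fold), the germ-cell kinase gene Aurkc (1.52-fold) and Uap1l1. Uap1l1 was the gene nearest to the threshold, and just outside it lay Telo2 and Dhdds (both 1.49-fold) and Ino80b (1.48-fold). Of the 27 higher genes, 10 stayed under a signal of 100 on all 4 arrays, as did 4 of the 10 lower genes and 29.2% of all genes. On at least 1 array 6 higher genes and 1 lower gene were at the floor, where a ratio is only a lower bound.

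Within the sides, the counted genes differed about as much as other genes. The smallest treated over untreated ratio was larger than both within-side ratios for 25 of the 27 higher genes and for all 10 lower genes. The exceptions were Cxcr4 and Crym. This follows in part from the rule, which asks for a wide gap. The median fold between ES and exercise was 1.21 for the higher and 1.12 for the lower genes, against 1.18 over all genes. Between ischemia and sham it was 1.12 and 1.14, against 1.12 over all genes. ES was above exercise in 20 of the 27 higher genes, against 54.5% of all genes, and in 5 of the 10 lower genes. The ratio that set the gap was exercise over sham in 13 of the 27 higher genes and exercise over ischemia in 7.

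**Figure D4:**
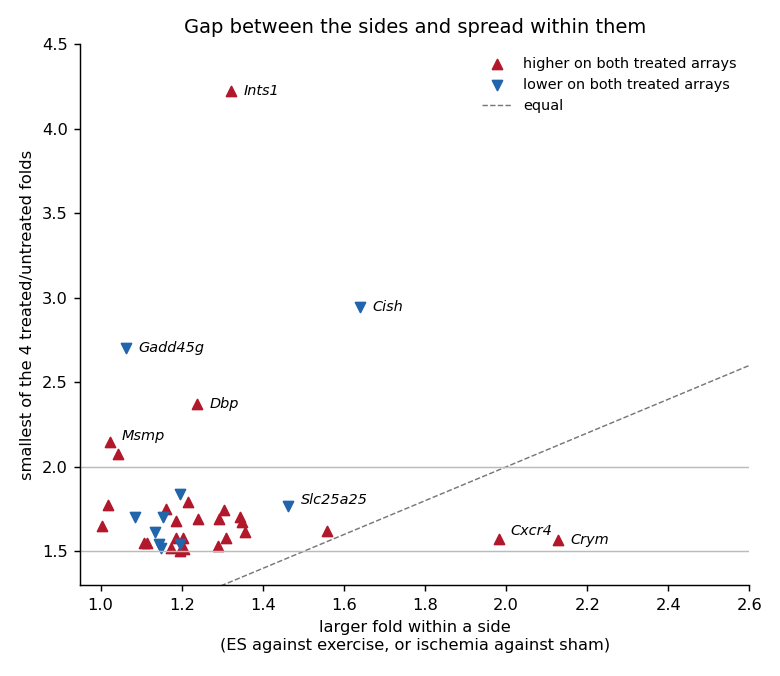
Smallest of the 4 treated over untreated folds (vertical axis) against the larger of the folds within a side (horizontal axis) for the 37 counted genes, with grey lines at 1.5-fold and 2-fold and a dashed line of equality. Cxcr4 and Crym lie under the dashed line, and the other 35 lie above it.

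Few counted genes had a second measurement. Of the 37, 25 had no other probe set. Among the other 12, 8 further probe sets of 6 genes were above the floor on at least 1 array. The difference of side means had the gene's direction in 7 of these 8, both treated arrays lay on the same side of both untreated ones in 6, and 1, of Cxcr4, passed 1.5-fold in all 4 ratios. The Osbpl3 probe set and 1 of the Ints1 probe sets among them exceeded the floor on treated arrays alone. Their direction was therefore fixed by the floor and is no second measurement. Across 7 changes of normalization, floor and probe set choice, 8 of the 37 genes kept a gap of 1.5-fold in each change that gave them a value: Chrna1, Dbp, Lpar6, Msmp, Sncg, Cish, Gadd45g and Slc25a25. All of these but Cish had no other probe set, so the changes of probe set choice could not alter their gaps. Msmp, at the floor on both untreated arrays, had a value in 6 of the 7 changes only. Of the 37 genes, 14 lacked a value in a change.

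The 31 lists held 412 measured genes, of which 6, in 5 lists, were counted, beside 37 of the 10092 genes compared: Dbp and Per3 in the clock list, Chrna1, Pln, Cxcr4 and Cish. The lists were chosen with earlier results of these data known, so these 2 shares cannot be set against each other as a result. The lists of contraction and metabolism held none. In the fatty acid list 27 genes were measured, and the median was 0.29. Of the 27, 5 had both treated arrays above both untreated ones and 0 below, close to the 18.4% of all genes above, with 13.4% below. Pdk4, the kinase that turns muscle from glucose to fat, had the widest gap of these, 1.28-fold, with 2232 on sham, 3570 on ischemia, 5232 on ES and 4570 on exercise. Ppargc1a, the coactivator of mitochondrial genes that exercise induces, read 308, 250, 334 and 467, a gap of 1.08-fold. Mitochondrial enzymes (25 genes) had 2 with both treated arrays above and 0 below, with a median of 0.14. The list of metabolic regulators had 2 above and 2 below of 19, with a median of -0.05. The counts of both lists are to be read against the same shares of all genes.

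Contractile genes differed between the 4 ratios. The slow-fibre list had a median of -1.58 for ES over sham, 0.94 for ES over ischemia, 0.21 for exercise over sham and 2.95 for exercise over ischemia, and 1 of 10 genes had both treated arrays above. Myh7, the slow myosin heavy chain, read 11340, 2970, 4827 and 12422. Fast-fibre genes had 6 of 14 above and 0 below, against 18.4% and 13.4% of all genes, but by at most 0.09 on the log2 scale in gap, with a list median of 0.10 (0.01 under quantile normalization). Myh4, a fast myosin heavy chain, read 12841, 13178, 10366 and 13339. In the list of embryonic and regenerating fibres, 2 of 14 genes were above and 1 below. The 1 below was Myod1, the myogenic factor, with 938, 756, 630 and 495, a gap of 1.20-fold.

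Interferon-stimulated genes had 7 of 17 with both treated arrays above both untreated ones and 0 below, against 18.4% and 13.4% of all genes, with a median of 0.47. Mx2, 1 of the 7, was at the floor on both untreated arrays (66.2 on ES and 33.3 on exercise), so it could not have lain below. The list's median was 0.83 for ES over sham and 0.09 for exercise over sham. Irf7, a transcription factor of the interferon response, had the widest gap, 1.26-fold, with 152, 182, 228 and 231. Immediate early genes had 2 of 17 above and 3 below, and Fos read 719, 127, 115 and 298. Heat shock genes had 0 of 12 above and 1 below, and Hspa1a read 443, 177, 209 and 580. Both named genes overlapped between the sides. Matrix genes had 1 of 25 above and 1 below, with medians of 1.02 for ES over sham and -0.86 for exercise over ischemia.

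The other lists are given by their counts, to be read against 18.4% of all genes above and 13.4% below. Both treated arrays lay above both untreated ones for 3 of 17 cell cycle genes, 5 of 17 muscle atrophy genes, 6 of 22 genes of glucose use and glycolysis, 0 of 7 cytokines and 0 of 17 antioxidant genes. They lay below for 0, 1, 6, 1 and 2 genes of these lists in the same order. Among cell markers, the counts above and below were 4 and 0 of 11 for pericytes and smooth muscle, 1 and 0 of 15 for macrophages, 1 and 1 of 9 for fibroblasts and 0 and 0 of 6 for tendon cells. They were 4 and 0 of 10 for muscle fibres and 0 and 1 of 3 for erythroid cells, while the 2 neutrophil markers overlapped.

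**Figure D5:**
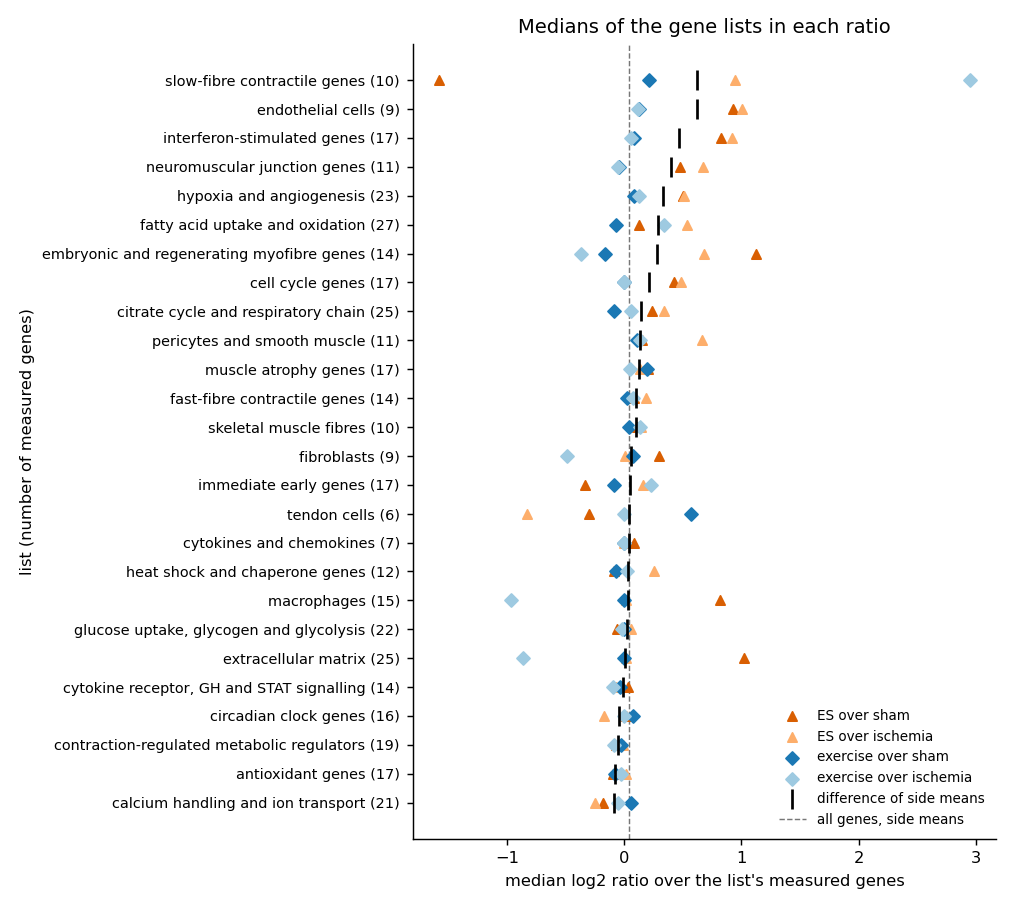
Median log2 ratio over the measured genes of each list with more than 5 of them (horizontal axis), for the 4 ratios (triangles for ES, diamonds for exercise) and for the difference of side means (black bars), with the median of all genes as a dashed line at 0.04. The 4 medians of the slow-fibre list span from -1.58 to 2.95, while those of the clock list lie between -0.17 and 0.07.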

How the data were processed

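RNA of skeletal muscle was labelled with biotin in a 3' in vitro transcription protocol and measured on 1 array per group, per the labels' protocols. Values are linear intensity units as the authors deposited them. Per the submitters' processing notes they were made with MAS5, whose version and settings they leave out. The 2% trimmed mean was 150.1 on each array as deposited, so a difference in total mRNA cannot be seen. GEO's platform annotation, dated 2016, paired 20832 of the 31099 probe sets with a single symbol. Where several served a gene, the brightest by mean signal was used. Genes that exceeded the floor on any array, 10092 in all, were compared with Python 3.11.15, numpy and pandas, and cyclic loess used limma 3.58.1. The calculation was tested on simulated data in which only genes well above the floor were changed. That test does not cover genes near the floor or narrow gaps. No test across groups was possible with 1 array each, and precision is limited by the small number of arrays.

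The comparison, the 31 lists, the motifs and the rule for named genes were chosen with earlier results of these data known. The rule took genes past 2-fold, the 20 widest gaps per direction, list members past 1.5-fold, threshold neighbours, the widest within-side ratios and 10 genes set by name (Cish, Fos, Hif1a, Hspa1a, Myh4, Myh7, Nos3, Pdk4, Ppargc1a and Vegfa). Hes1, Aplf and Rab3a, the list genes that were not counted, and the Chrna1 start region were named outside it, after their values were seen. Each count was repeated with quantile or cyclic loess normalization, floors at the 30th and 70th percentile, a pseudocount in place of the floor, the mean of a gene's probe sets, leaving out cross-hybridizing probe sets, side means, and leaving out each array. Promoter windows were matched to genes through RefSeq, and 33 of the 37 counted genes had one.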

Additional observations from a re-analysis of the deposited data

How the results depend on the processing

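The counts at 1.5-fold depended most on the floor and on how the sides were set against each other. With the floor at the 30th percentile, 91 genes were higher and 47 lower at 1.5-fold, and 12 and 5 at 2-fold. At the 70th percentile the counts were 10 and 3 at 1.5-fold, with 2 higher at 2-fold. A pseudocount gave 10 and 5 at 1.5-fold, with 2 higher at 2-fold. Side means gave 307 and 91 at 1.5-fold and 29 and 9 at 2-fold. With the mean of all probe sets, 2 genes were higher and 1 lower at 2-fold. Leaving out 1 array gave 105 to 599 higher and 57 to 216 lower genes at 1.5-fold, and 9 to 133 higher and 5 to 35 lower at 2-fold, since 2 ratios then count in place of 4. Under quantile normalization 24 of the 27 higher and 10 of the 10 lower genes remained, and under cyclic loess 25 and 10. Of the 37 genes, 29 fell under 1.5-fold in at least 1 of 7 changes of processing and 0 changed direction. Averaging with a probe set under the floor on every array narrows a gap by arithmetic, and genes lost that way are among the 29. List medians changed sign under quantile or loess normalization for cytokines, macrophages, tendon cells and glucose use and glycolysis, whose medians were between 0.02 and 0.04. No paired analysis was possible because each group has 1 array and the labels carry no replicate numbers.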

Other observations

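Probe sets without a single gene symbol also passed the folds. Each was counted on its own, not as the brightest of a gene, so the counts do not compare directly with those of genes. Of 3877 such probe sets that exceeded the floor on any array, 13 were at least 1.5-fold higher in all 4 ratios and 6 lower, and at 2-fold 1 was higher and 1 lower. They are not named here.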
